A study of Mus musculus with 8 samples.

Results

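The B cell marker genes were 7 genes that lymphocytes of the B lineage use for their antigen receptor, its signalling and their identity: Cd79a, Cd79b, Ms4a1, Pax5, Blk, Cd22 and Cr2. They were chosen by name, and every non-control probe whose RefSeq transcript mapped to 1 of the symbols was taken. This gave 9 probes, of 39429 on the array, for the 7 genes, of 20659 named. All 9 passed the filter for testing, which asked for signal well above the array's background on at least 3 of the 8 arrays. Cd79a, Cd79b, Ms4a1, Blk and Cd22 had 1 probe each, and Pax5 and Cr2 had 2 each. For the latter, the probe with the higher mean signal stood for the gene and the second probe is described beside it.

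RNA came from the myocardium, the heart muscle, of untreated male mice. The 3 arrays labelled NPRA-/- carried RNA of mice lacking the natriuretic peptide receptor NPRA, made with a floxed (NprAflox/flox) conditional allele and described in the series title as deficient in the heart. The 5 arrays labelled NPRA+/+ were the wild type. The Cre driver, the animals' age and whether the wild type carried any floxed allele or Cre are not given in the labels used here. Each sample was 1 array in 1 colour, and the labels do not say which animal it came from. The p-values therefore reflect only how far these samples spread, which may be technical in part. Of the wild type arrays, 3 (replicates 1, 2 and 3) carry the same number 1 in their source names and may share an origin, in which case n = 5 counts too many. With arrays of equal source number averaged, leaving 3 against 3, 0 of the 7 genes were called. The design text of the series speaks of an array for m6A, a mark on RNA, whereas the series type, the labelling protocol and the files are those of expression profiling; the values are read here as expression.

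The B cell receptor is a membrane antibody that cannot signal by itself. Cd79a and Cd79b form the dimer that carries its signal into the cell, and Blk is a Src family kinase that acts just below it. Cd22 is a lectin that dampens the receptor, while Cr2 (CD21) binds complement fragments and sharpens it. Ms4a1 encodes CD20, a surface protein of mature B cells, and Pax5 is the transcription factor that holds cells to the B lineage. B cells are known among the resident leukocytes of the mouse heart. In bulk RNA such as this, fewer B cells and less RNA per B cell cannot be told apart.

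The starts of 3 of the genes are shown because the results below turn on them: Cd22 and Cr2 ran in opposite directions across the arrays, and Cd79a was 1 of 3 genes whose genotypes did not overlap. The RefSeq promoter table of the build GRCm38.p6 held 4 of the 7 genes (Cr2, Pax5, Cd79a and Cd22), each with 250 bases before the transcription start and 50 after it, 5′ to 3′ on the strand of the gene. The Cd79a stretch lies at chr7:24897247-24897546 on the plus strand, Cd22 at chr7:30878979-30879278 on the minus strand and Cr2 at chr1:195176670-195176969 on the minus strand. Capitals mark matches to motifs of B lineage factors.

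Cd79a: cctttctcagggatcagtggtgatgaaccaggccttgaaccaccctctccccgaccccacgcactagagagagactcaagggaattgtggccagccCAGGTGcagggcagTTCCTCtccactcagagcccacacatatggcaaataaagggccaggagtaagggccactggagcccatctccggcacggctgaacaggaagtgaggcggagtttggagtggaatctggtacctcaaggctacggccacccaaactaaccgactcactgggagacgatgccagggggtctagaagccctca
Cd22: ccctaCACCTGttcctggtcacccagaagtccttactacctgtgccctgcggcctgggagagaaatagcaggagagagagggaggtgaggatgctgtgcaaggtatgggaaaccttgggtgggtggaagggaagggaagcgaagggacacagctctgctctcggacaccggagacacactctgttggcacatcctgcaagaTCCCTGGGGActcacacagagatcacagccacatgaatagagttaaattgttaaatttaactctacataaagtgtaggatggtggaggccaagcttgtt
Cr2: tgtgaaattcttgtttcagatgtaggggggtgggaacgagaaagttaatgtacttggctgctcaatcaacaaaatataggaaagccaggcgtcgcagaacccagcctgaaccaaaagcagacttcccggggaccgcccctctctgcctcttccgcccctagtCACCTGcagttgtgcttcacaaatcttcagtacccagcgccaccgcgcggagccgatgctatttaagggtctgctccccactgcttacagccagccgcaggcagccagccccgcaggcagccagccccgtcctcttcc

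Motifs were searched on both strands by exact letters. The palindromic site of EBF, TCCC and GGGA with 2 bases between them, was found in 1 of the 4 promoters, that of Cd22, as TCCCTGGGGA starting 49 bases before the transcription start. It was held by 0.904% of the 32851 mouse promoters of the same length. The E-box of E2A, CAGGTG, was found in 3 of the 4, starting 154 bases before the start in Cd79a and, on the other strand, 88 before it in Cr2 and 245 before it in Cd22. It was held by 20.2% of all promoters. The PU.1 core GAGGAA was found on the other strand of Cd79a, as TTCCTC 140 bases before the start, and by 28.3% of all promoters. No match to the octamer ATGCAAAT (1.74% of all promoters) or to the TATA box TATAAA (13.6%) was in these windows. The capitals in 1 promoter do not overlap each other. These matches describe letters, not binding.

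Signal on an array is given here as the log2 of the processed intensity relative to the array's own 75th percentile, so that 0 is the signal of a spot at that percentile. Levels of different probes cannot be set against each other. Between 79.5% and 92.6% of probes were well above background on an array, and no spot was saturated (0). Replicate 1 of each genotype lay apart from the other 6 arrays on the leading principal component, which held 47.3% of the variance, so results that rest on these arrays are given without them too. The probe of Npr1, which encodes NPRA, lay between -6.42 and -5.53 on the NPRA-/- arrays and between -6.55 and -4.77 on the NPRA+/+ arrays. Its signal stood well above background on 2 of 3 and 4 of 5 of them, so it gave no check of the genotype labels. All 10 markers of cardiomyocytes were well above background on all arrays.

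None of the 7 genes passed the test of genotype (0 called in either direction, limma with Benjamini-Hochberg adjustment over all probes, threshold 0.05), against 0.32% of all 35325 probes tested called higher in NPRA-/- and 0.0283% called lower. At an unadjusted p under 0.05, 2 of the 7 were higher in NPRA-/- (Blk and Cd79a) and 0 lower, where the shares of all probes were 18.3% and 1.36%. For Cd79a, Blk and Cr2, 3 of the 7, each NPRA-/- array lay above each NPRA+/+ array, and for 0 of 7 below; the shares of all probes were 14.1% and 1.29%. Ranked by mean signal and cut into 5 equal classes, the dimmest class had 24.9% of probes higher without overlap, the next 22.3%, and the brightest 3.62%. Blk lay in the dimmest class, Cd79a in the next, and Cr2 in the second brightest, which had 4.88%. The median fitted change was 0.27 over the 7 genes and 0.21 over all probes. After quantile normalization, which gives each array the same distribution of signals, the medians were -0.09 and -0.002, and 0 of the 7 genes stayed without overlap, against 3.7% of probes higher.

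**Figure D1:**
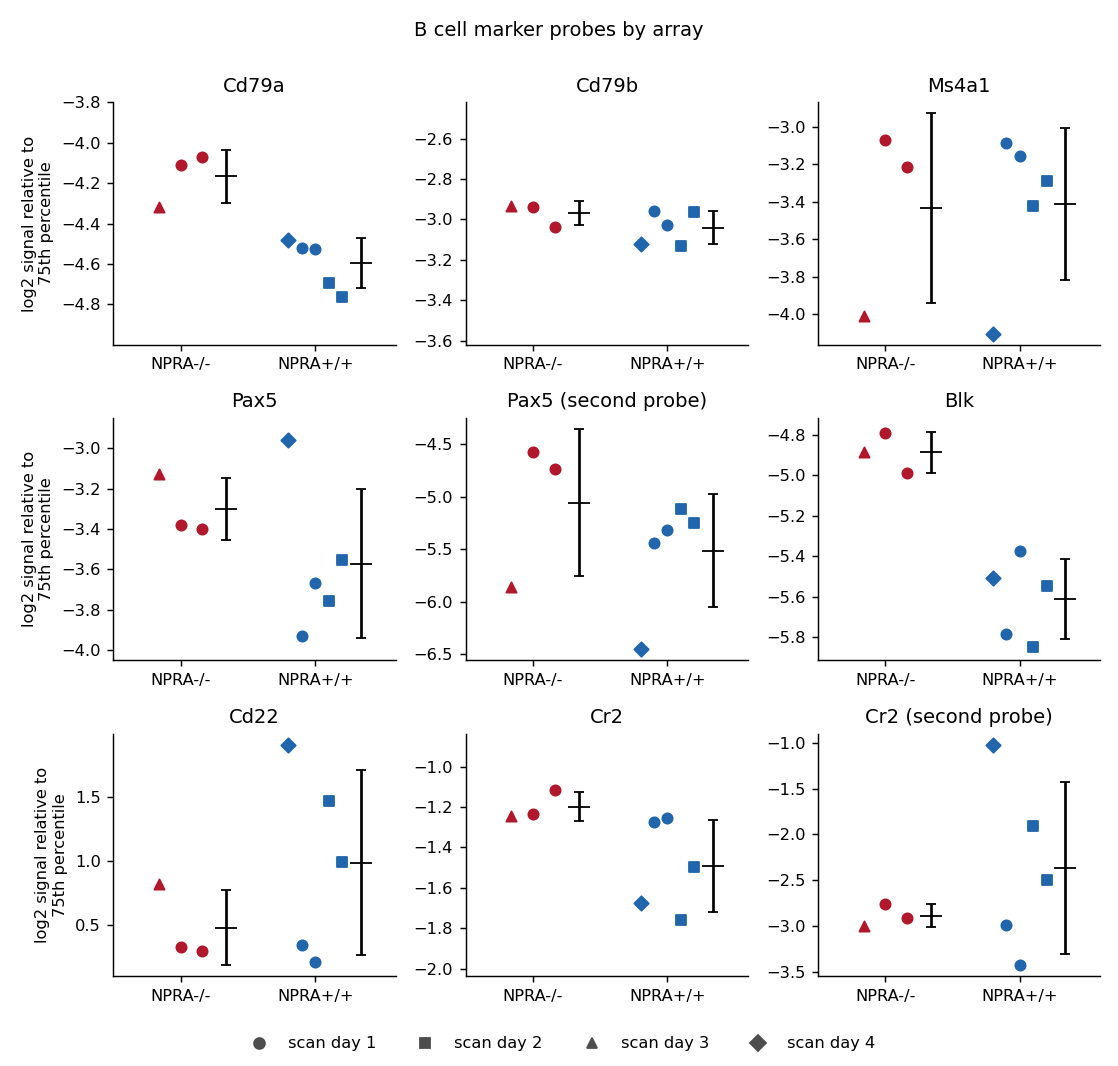
Signal of the 9 probes on each array, as log2 relative to the array's 75th percentile (vertical axis, own range per panel), with NPRA-/- in red (3 arrays) and NPRA+/+ in blue (5 arrays). Marker shapes give the day of the scan and black bars the mean with its SD. Cd79a, Blk and the first Cr2 probe show no overlap between genotypes, while the Ms4a1 values split by replicate 1 against the rest.

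Of the signalling pair of the receptor, Cd79a separated the genotypes without passing the adjusted test, and Cd79b overlapped. The difference between the pair's changes was not tested. The Cd79a probe (A_66_P120987, NM_007655) read -4.32, -4.11 and -4.07 on NPRA-/- arrays 1 to 3 and -4.48, -4.52, -4.52, -4.69 and -4.77 on NPRA+/+ arrays 1 to 5. The NPRA-/- arrays were the 3 highest, with NPRA-/- replicate 1 nearest to the wild type. The mean was -4.16 ± 0.13 (SD, n = 3) in NPRA-/- against -4.60 ± 0.13 (SD, n = 5) in NPRA+/+, and the fitted change was 0.43 ± 0.13 (SE) with a limma adjusted p of 0.131. An exact two-sided permutation test of the means gave p = 0.0179, the smallest that 56 assignments of 3 and 5 arrays allow. Probes of like signal, the second dimmest of the 5 classes, had a median change of 0.40, so Cd79a stood 0.03 above them. After quantile normalization its change was -0.01 (adjusted p = 0.989). On scan day 1, which held NPRA-/- replicates 2 and 3 and NPRA+/+ replicates 2 and 3, the difference was 0.43. The NPRA-/- arrays of that day shared a scan time and the NPRA+/+ arrays shared another. Genotype and scan time therefore cannot be told apart within it. Its wild type arrays also carry the same source number 1.

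Cd79b (A_51_P342652, NM_008339), the partner chain, read -2.93, -2.94 and -3.04 on the NPRA-/- arrays. On the NPRA+/+ arrays it read -3.12, -2.96, -3.03, -3.13 and -2.96. The genotypes overlapped, and the whole range over 8 arrays was 0.20, the narrowest of the 9 probes. The fitted change was 0.07 ± 0.11 (SE), adjusted p = 0.783, against a median of 0.22 for probes of like signal. After quantile normalization it was -0.23 (adjusted p = 0.738).

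Blk, the Src family kinase, had the largest fitted change of the 7 genes, from a dim probe (A_52_P15405, NM_007549). It read -4.88, -4.79 and -4.99 on the NPRA-/- arrays and -5.51, -5.78, -5.37, -5.85 and -5.55 on the NPRA+/+ arrays, well above background on 3 of 3 and 4 of 5. All NPRA-/- arrays lay above all NPRA+/+ arrays. The NPRA-/- mean was -4.89 ± 0.10 (SD, n = 3), against -5.61 ± 0.20 (SD, n = 5). The fitted change was 0.73 ± 0.15 (SE), adjusted p = 0.074 by limma and p = 0.0179 by the exact two-sided permutation test. The median change in the dimmest class, to which it belongs, was 0.63, and Blk stood 0.10 above it. Within scan day 1 the difference was 0.69, and after quantile normalization it was 0.16 (adjusted p = 0.824). Without NPRA+/+ replicate 1 the adjusted p was 0.0293, a call, beside 3900 probes (11%) called higher over the whole array in that fit in place of 113. Without replicate 1 of both genotypes, Blk (adjusted p = 0.0428) and Cd79a (adjusted p = 0.0399) were called, beside 3952 probes (11.2%) called higher.

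**Figure D2:**
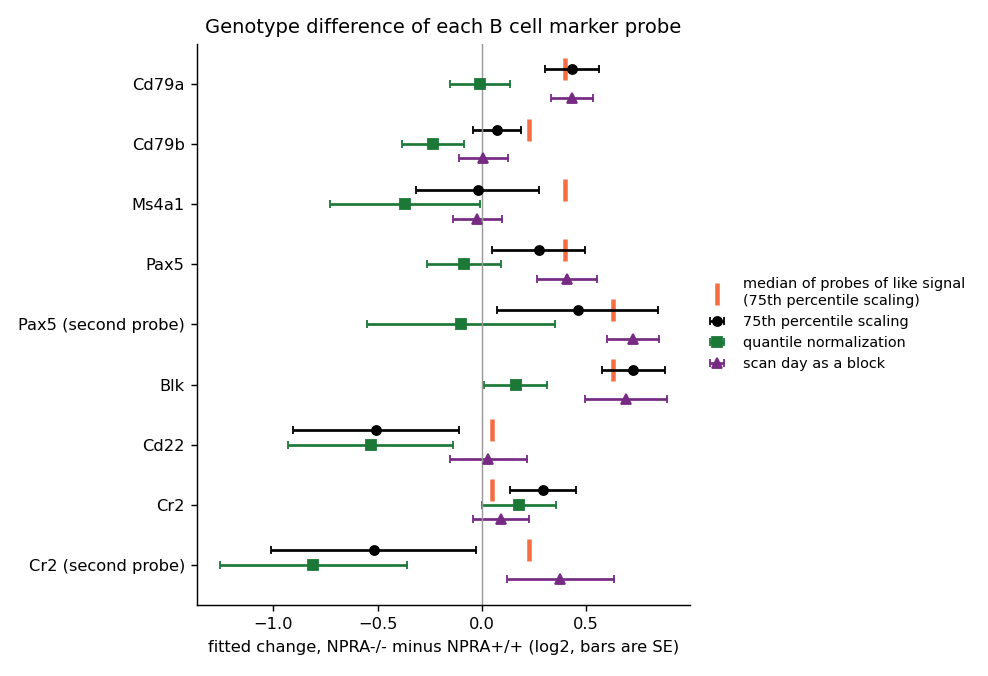
Fitted difference of NPRA-/- minus NPRA+/+ for each of the 9 probes (log2, bars are the SE) under 75th percentile scaling (black), quantile normalization (green) and with scan day as a block (purple). Orange ticks give the median change of probes of like signal, 0.40 for Cd79a and 0.63 for Blk, close to those genes' own changes.

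Pax5, the factor that fixes B cell identity, overlapped between genotypes on both probes. The probe of higher signal (A_55_P2126394, NM_008782) read -3.13, -3.38 and -3.40 on the NPRA-/- arrays and -2.96, -3.93, -3.67, -3.76 and -3.55 on the NPRA+/+ arrays. NPRA+/+ replicate 1 was the highest of all 8 and the other 4 wild type arrays lay below all NPRA-/- arrays. The fitted change was 0.27 ± 0.22 (SE), adjusted p = 0.547, 0.42 without NPRA+/+ replicate 1 and -0.09 after quantile normalization. The second probe (A_51_P122855) read -5.86, -4.58 and -4.73 on the NPRA-/- arrays and -6.45, -5.44, -5.31, -5.11 and -5.25 on the NPRA+/+ arrays, and was well above background on 2 of 3 and 4 of 5. Here replicate 1 of each genotype was the lowest of its group, the opposite of the first probe. Its fitted change was 0.46 ± 0.39 (SE), adjusted p = 0.558. Leaving out single arrays moved it from 0.22 (without NPRA-/- replicate 2, or without NPRA+/+ replicate 1) to 0.86 (without NPRA-/- replicate 1). Across the 8 arrays the 2 Pax5 probes correlated by -0.49 (exact permutation p = 0.219, rho = -0.24), by 0.86 over the 6 arrays without replicate 1 of each genotype and by 0.95 over the 4 of scan day 1. With replicate 1 of both left out, the second probe had a fitted change of 0.63 and an adjusted p of 0.0354. That fit called 3952 probes (11.2%) higher over the whole array. In the main fit the dimmest class, to which this probe belongs, had a median change of 0.63.

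Ms4a1, which encodes CD20, overlapped between genotypes and was low on 1 array of each. Its probe (A_52_P483336, NM_007641) read -4.01, -3.07 and -3.22 on the NPRA-/- arrays. On the NPRA+/+ arrays it read -4.10, -3.09, -3.16, -3.42 and -3.29. Replicate 1 of both genotypes was lowest, and the 4 arrays of scan day 1 (-3.22 to -3.07) lay above all others (-4.10 to -3.29). The share of all probes with scan day 1 above all other arrays was 6.33%. The fitted change between genotypes was -0.02 ± 0.29 (SE), adjusted p = 0.98, 0.27 without NPRA-/- replicate 1, -0.19 without NPRA+/+ replicate 1 and 0.09 without both.

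Cd22, the inhibitory lectin, also lay by scan day. Its probe (A_55_P2016004, NM_001043317) read 0.82, 0.32 and 0.29 on the NPRA-/- arrays and 1.91, 0.34, 0.21, 1.47 and 0.99 on the NPRA+/+ arrays. The 4 arrays of scan day 1 held 0.21 to 0.34, a range within which both genotypes lay, and the arrays of the other days held 0.82 to 1.91. This separation, scan day 1 below all others, was found for 2.45% of probes. The mean was 0.48 ± 0.29 (SD, n = 3) in NPRA-/- against 0.98 ± 0.72 (SD, n = 5) in NPRA+/+. The fitted change was -0.51 ± 0.40 (SE), adjusted p = 0.527. It was -0.28 without NPRA+/+ replicate 1, -0.45 without replicate 1 of both genotypes, and 0.03 ± 0.19 (SE), adjusted p = 0.936, within scan day 1. On scan days 2 to 4 each day held a single genotype, so genotype and scan day cannot be told apart there. Within scan day 1, genotype and scan time cannot be told apart either.

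Cr2, the complement receptor that lowers the threshold of the B cell receptor, gave opposite readings from its 2 probes. The probe of higher signal (A_55_P1971729, NM_007758) read -1.25, -1.23 and -1.11 on the NPRA-/- arrays and -1.67, -1.28, -1.25, -1.76 and -1.50 on the NPRA+/+ arrays. The genotypes did not overlap, but the lowest NPRA-/- array (-1.246) and the highest NPRA+/+ array (-1.252) nearly met. The fitted change was 0.29 ± 0.16 (SE), adjusted p = 0.347, with p = 0.0536 by the exact two-sided permutation test. It was 0.09 ± 0.13 (SE) within scan day 1 and 0.18 after quantile normalization (adjusted p = 0.84). Probes of like signal had a median change of 0.05. The second probe (A_55_P1971724, the same transcript) read -3.00, -2.76 and -2.91 on the NPRA-/- arrays and -1.02, -2.99, -3.43, -1.91 and -2.50 on the NPRA+/+ arrays. On it, 3 of the 5 wild type arrays lay above all NPRA-/- arrays, and its fitted change was -0.52 ± 0.49 (SE), adjusted p = 0.611. It was -0.18 without NPRA+/+ replicate 1 and -0.13 without replicate 1 of both genotypes. Within scan day 1 that change was 0.38, with the opposite sign. The 2 probes correlated by -0.83 over the 8 arrays (exact permutation p = 0.0112, rho = -0.60) and by -0.84 over 6, but by 0.31 over the 4 arrays of scan day 1. The mean of both probes changed by -0.11 ± 0.22 (SE). No direction can be given for Cr2 as a gene.

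Correlation between the 7 genes across the 8 arrays was mixed in sign. Of the 21 pairs, 12 correlated above 0 and 9 below, with a median Pearson r of 0.29 and a range from -0.90 to 0.85. By exact permutation of the pairings, 4 pairs had an unadjusted p under 0.05 for r and 5 for Spearman's rho, and 0 pairs passed after Benjamini-Hochberg adjustment over the 21 (smallest adjusted p 0.0953 for r and 0.193 for rho). Over the 6 arrays without replicate 1 of each genotype, 16 of the 21 pairs kept their sign, 6 were negative, and the median was 0.40. Under this scaling all 6 of these negative pairs held Cd22. With quantile normalization of the same 6 arrays, pairs without Cd22 were negative too, such as Cd79a and Cd79b (-0.70). Cd22 was then above 0 with Cd79b (0.33) and Pax5 (0.39) and below 0 with the other genes. After quantile normalization the median over 8 arrays was 0.23 with 10 negative pairs. All pairs share the same arrays, so the 21 values are not independent of each other.

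**Figure D3:**
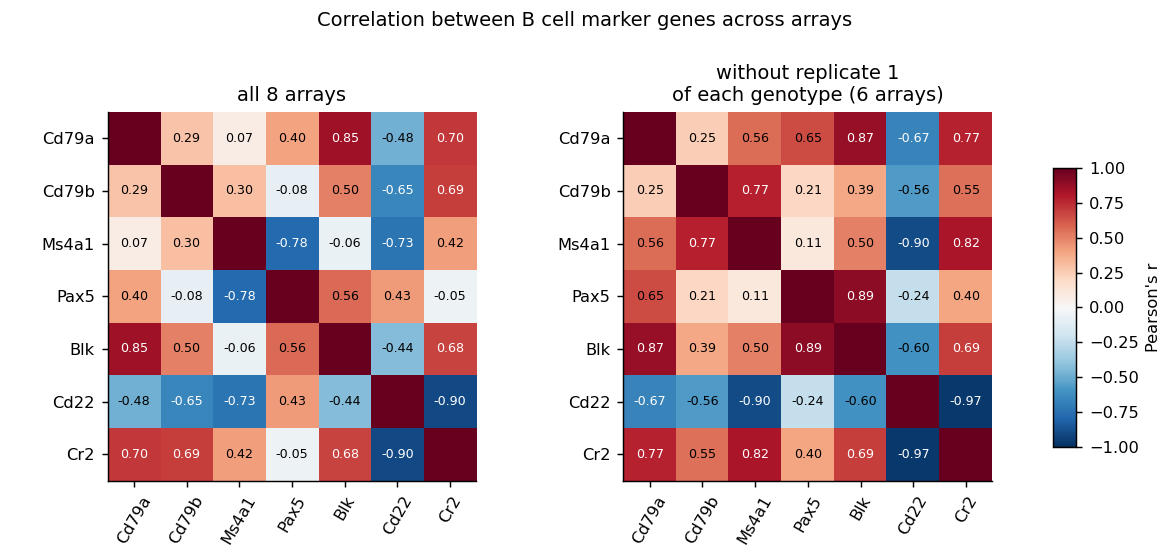
Pearson's r between the 7 genes across all 8 arrays (left) and across the 6 arrays without replicate 1 of each genotype (right), each gene by its probe of higher signal. Cd22 against Cr2 is -0.90 on the left and -0.97 on the right, and the row of Cd22 is negative throughout on the right.

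The lowest correlation was between Cd22 and Cr2, an inhibitor and an amplifier of the same receptor. Their r was -0.90 (exact permutation p = 0.00454, adjusted p = 0.0953) and rho was -0.79 (exact permutation p = 0.0279). Without the 2 arrays farthest from the median of Cd22 it was -0.73, without replicate 1 of each genotype -0.97, and after quantile normalization -0.98. With the genotype means removed it was -0.92. Cd22 correlated by 0.93 with the second Cr2 probe (exact permutation p = 0.00174, rho = 0.79), so the sign of the relation depended on the Cr2 probe. Within scan day 1 the pooled relation with the first probe was not seen: over its 4 arrays, too few for a test, r was -0.06 for the first Cr2 probe and 0.85 for the second. Those arrays spanned 0.21 to 0.34 for Cd22 and -1.28 to -1.11 for the first Cr2 probe. The other scan days held 1 or 2 arrays, too few for a value.

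**Figure D4:**
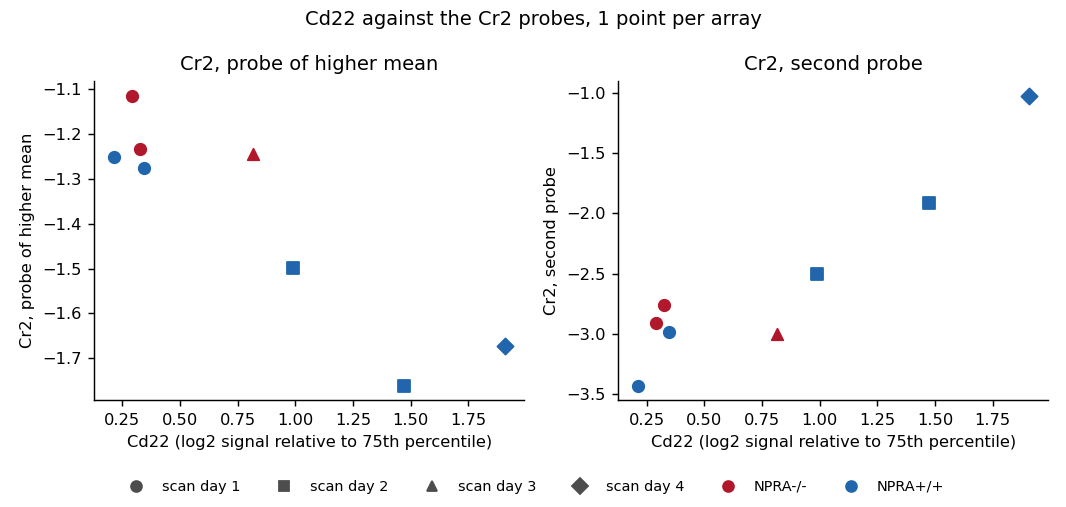
Cd22 (horizontal axis) against the first Cr2 probe (left) and the second (right), all as log2 signal relative to the 75th percentile, 1 point per array, with colour for genotype and shape for scan day. The points fall on the left (r = -0.90) and rise on the right (r = 0.93), and the 4 arrays of scan day 1 sit together at low Cd22.

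Cd79a and Blk gave the highest correlation, 0.85 (exact permutation p = 0.0113, adjusted p = 0.119; rho = 0.76, p = 0.0368 by the same exact test). Without the 2 arrays farthest from the median of Cd79a it was 0.71, over the 6 arrays 0.87, and over the 4 of scan day 1 0.89. Both genes lay higher on all NPRA-/- arrays, and with the genotype means removed the correlation was 0.17. After quantile normalization it was 0.34. Ms4a1 and Pax5 correlated by -0.78 (exact permutation p = 0.0259) over the 8 arrays and by 0.11 without replicate 1 of each genotype, so that relation rested on these 2 arrays. Ms4a1 and Cd22 correlated by -0.73 (exact permutation p = 0.0407) and by -0.90 over the 6 arrays, but by 0.53 over the 4 of scan day 1. With quantile normalization this pair had -0.52 over the 8 arrays and -0.06 over the 6. Cd79a and Cd79b, whose products pair in the receptor, correlated by 0.29 (exact permutation p = 0.479) over 8 arrays and 0.25 over 6, but by -0.30 with the genotype means removed. With quantile normalization this pair had 0.40 over the 8 arrays and -0.70 over the 6.

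The genes whose pattern over the 8 arrays was most like that of Cd79a, among 15634 named genes well above background on all arrays, were Serpinb9e, Serpina3f, Prr18, Vmn2r48 and Cep97. Their r lay between 0.987 and 0.994, and 315 genes had an r over 0.9. None of the 5 named genes is on a B cell list, and the fitted changes of these 5 lay between 0.50 and 0.81. For Cd79b the 5 were Cdk12, Rbbp5, Ranbp9, Scly and Zfp523, with r from 0.933 to 0.973 and 23 genes over 0.9. Their fitted changes lay between 0.07 and 0.22. These are descriptions over 8 points that share arrays and scaling.

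Of 72 other B lineage genes on the array, in 5 lists, 68 were tested and 0 were called (limma), with 13 higher and 0 lower by an unadjusted p below 0.05 and 8 higher without overlap. The shares of all probes by these rules are 18.3%, 1.36% and 14.1%. After quantile normalization 1 was higher and 5 were lower by an unadjusted p below 0.05, where the shares of all probes were 4.02% and 4.04%. Without NPRA+/+ replicate 1 there were 8 calls and without replicate 1 of both genotypes 6, all higher; in these fits 11% and 11.2% of all probes were called higher.

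Among genes of B cell identity and signalling, 36 of 38 were tested, with 5 higher and 0 lower by an unadjusted p below 0.05 and a median change of 0.20. Fcer2a, the low affinity IgE receptor CD23, had the smallest p. It read -1.81, -1.53 and -1.57 on the NPRA-/- arrays and from -2.21 to -2.02 on the NPRA+/+ arrays without overlap, a fitted change of 0.48 ± 0.12 (SE), adjusted p = 0.0983. Its quantile-normalized change was 0.30. Btk, the kinase that relays the receptor's signal, changed by 0.44 ± 0.14 (SE), adjusted p = 0.147. Pou2af1, a coactivator of octamer factors, changed by 0.54 ± 0.18 (SE), adjusted p = 0.152. Neither overlapped between genotypes, and after quantile normalization their changes were 0.09 and 0.19. The brightest of this list, Cd81, Cd55 and Plcg2, which heart cells of other types also express, changed by 0.20, 0.21 and 0.13, and their genotypes overlapped.

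In the germinal centre list 6 of 6 genes were tested, with a median change of 0.21. Fas, the death receptor, changed by 0.35 ± 0.16 (SE) and Mybl1, a transcription factor of dividing germinal centre cells, by 0.67 ± 0.47 (SE). Bcl6, the repressor that sets up the germinal centre programme, changed by 0.06 ± 0.16 (SE), with overlap.

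In the precursor list 8 of 9 genes were tested, with 3 higher at an unadjusted p under 0.05 and a median of 0.25. Rag1, a subunit of the recombinase that assembles antibody genes, changed by 1.13 ± 0.24 (SE), adjusted p = 0.0754, but stood above background on only 2 of 3 NPRA-/- arrays and 1 of 5 NPRA+/+ arrays. Vpreb1, part of the surrogate light chain, changed by 0.55 ± 0.12 (SE), adjusted p = 0.0799, and by 0.004 after quantile normalization. Dntt, the polymerase that adds untemplated bases at the joints, changed by 0.47 ± 0.19 (SE) with overlap. Sox4 and Cd93, which other heart cells also express, changed by -0.41 ± 0.39 and -0.09 ± 0.17 (SE). Of 16 further probes of the 5 lists, 1 was called, a dim second probe of Rag2, the partner of Rag1, which was singled out after its values were seen. It changed by 1.23 ± 0.14 (SE), adjusted p = 0.0453, and was well above background on 2 of 3 and 1 of 5 arrays. After quantile normalization its change was 0.56 (adjusted p = 0.478). The Rag2 probe of higher signal changed by 0.18 ± 0.28 (SE), adjusted p = 0.774. Over all probes tested, 0.32% were called higher. The dimmest class, which held this second Rag2 probe, Rag1 and Vpreb1, had a median change of 0.63.

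In the plasma cell list 9 of 10 genes were tested, with 2 higher at an unadjusted p under 0.05 and a median of 0.33. Jchain, which joins secreted antibodies, changed by 0.61 ± 0.20 (SE), adjusted p = 0.154, and Sdc1, the surface marker CD138, by 0.47 ± 0.19 (SE), adjusted p = 0.226. Probes of like signal to both had a median change of 0.40. After quantile normalization Jchain changed by 0.25 and Sdc1 by -0.01. In the main fit Fkbp11, a folding enzyme of secretory cells, went the other way by -1.24 ± 0.56 (SE), adjusted p = 0.266. Its arrays of scan day 1 lay between -2.88 and -2.22, below all other arrays, as for Cd22. Xbp1 and Prdm1, regulators of the secretory state, changed by 0.02 ± 0.21 and -0.13 ± 0.30 (SE).

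In the list of MHC class II and antigen presentation 9 of 9 genes were tested, with 2 higher at an unadjusted p under 0.05 and a median of 0.17. H2-DMb2 changed by 1.39 ± 0.47 (SE) but was well above background on 2 of 3 and 1 of 5 arrays. H2-DMa changed by 0.33 ± 0.12 (SE), adjusted p = 0.192. Probes of like signal had median changes of 0.63 and 0.22 in that order. H2-DMb2 and H2-DMa encode chains of the peptide exchanger of this pathway. H2-Ob, its modulator in B cells, changed by 0.86 ± 0.43 (SE) with overlap. Of the brightest genes, H2-Ab1 changed by 0.15 ± 0.17, Cd74, the invariant chain, by -0.10 ± 0.20, and H2-Eb1 by 0.17 ± 0.15 (SE). The H2-Eb1 fit used 3 NPRA+/+ arrays, since the spots of the other 2 were marked as outliers.

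**Figure D5:**
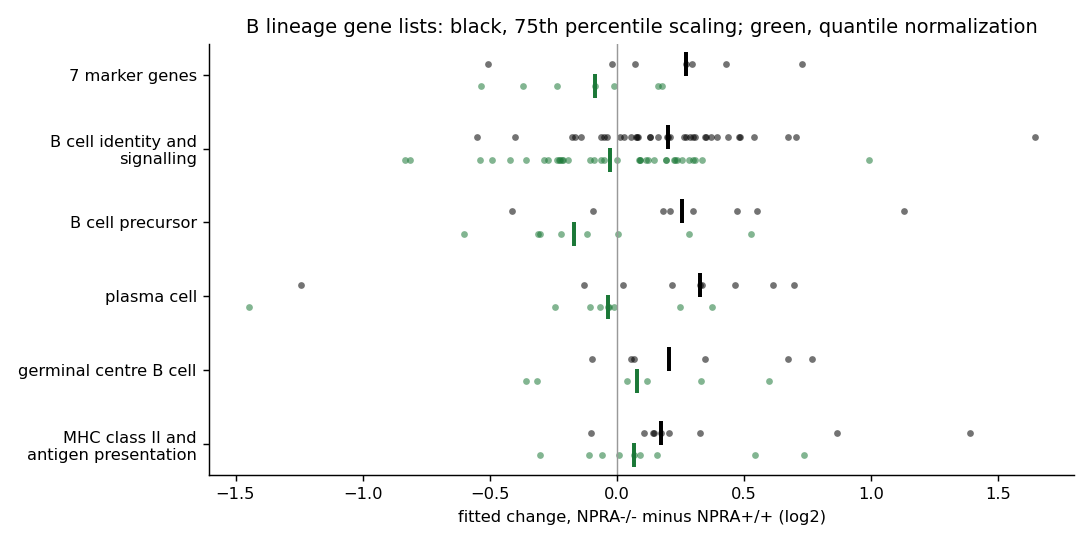
Fitted difference of NPRA-/- minus NPRA+/+ (log2) of each tested gene in the 7 marker genes and 5 further B lineage lists, with 75th percentile scaling in black and quantile normalization in green; vertical ticks are medians. The black medians lie between 0.17 and 0.33 and the green between -0.17 and 0.08.

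Markers of other cell types were read in the same way. Of the T cell list 12 of 14 genes were tested, with 0 calls, a median of 0.49, and a summed linear signal (in units of the 75th percentile) between 3.59 and 5.85 on NPRA-/- arrays and 3.03 and 5.75 on NPRA+/+ arrays. Cd8a, a coreceptor of cytotoxic T cells, changed by 0.57 ± 0.15 (SE), adjusted p = 0.103. Probes of like signal to Cd8a had a median change of 0.40. After quantile normalization Cd8a changed by 0.15 and the T cell median was 0.14. The neutrophil list (8 of 9 on the array tested, 0 calls) summed to 1.76 to 2.04 and 0.80 to 2.03, with S100a9 at 1.04 ± 0.20 (SE), adjusted p = 0.0693. The macrophage list (11 of 11, 0 calls) summed to 23.8 to 25.8 and 18.6 to 25.2. The list of lymph node stroma and follicular dendritic cells (5 of 5, 0 calls) summed to 15.01 to 15.75 and 12.7 to 18.5. Such sums lean on the brightest gene, here Mfge8 (log2 3.30 to 4.16) and for T cells Thy1. They hide Glycam1, which was uneven across arrays. It read -1.05 and 1.17 on replicate 1 of NPRA-/- and NPRA+/+. It read -6.02 to -5.42 on the other NPRA-/- arrays and -7.95 to -3.73 on the other NPRA+/+ arrays. The mesothelial list, of cells lining the heart's surface, held the 1 call among these lists: Msln at 2.48 ± 0.36 (SE), adjusted p = 0.0498. Its sums were 1.24 to 1.81 and 0.69 to 1.02, without overlap. The cardiomyocyte list summed to 865 to 2208 and 457 to 1768, highest in each genotype on replicate 1. The natural killer, dendritic, erythroid, endothelial, fibroblast and adipocyte lists had 0 calls each, with median changes between 0.08 and 0.59. After quantile normalization these medians lay between -0.05 and 0.27. The part of these cell types in the B cell values was not tested.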

How the data were processed

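The 8 arrays were read from the deposited scanner files, whose processed intensity values, per the file headers, are background-subtracted within the array (software Agilent Feature Extraction, version 11.0.1.1). The deposited series table holds log2 values with no normalization named in the labels; it ranked probes as the scanner values did (rank correlation of at least 0.9994) and served as an alternative. Of its 39485 entries, 56 were not used. Outlier-marked spots were set to missing, log2 values were scaled to each array's 75th percentile, and probes well above background on at least 3 of 8 arrays were tested. Precision is limited by the number of arrays.

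The comparison of genotypes used lmFit and eBayes of limma 3.58.1 (R 4.3.3) with Benjamini-Hochberg adjustment over 35325 probes; every adjusted p of a probe is from that fit or from the same test under the alternative named beside it. Correlations used exact permutation of pairings in SciPy 1.17.1. Probes were named through RefSeq transcripts and the gene table of GRCm38.p6 (27234 of 39429 with 1 symbol); the array design uses another build, so probe coordinates are not given. On simulated data 16% of probes changed by 1 and 88% of those changed by 2 (log2) were called, with 7 false calls, and 0% of those changed by 0.5. The simulated noise was independent between probes and arrays, without scan days, slides or a shift with signal. These rates therefore need not hold for the real arrays.

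The 7 genes, the 18 gene lists and the tests were chosen with earlier results of these data known. Named were all 7 genes, and of each B lineage list the genes past the threshold, up to 3 by smallest p and the 3 brightest; of the other cell types only those a sentence needed. Some genes of the lists are not reported here by name. Cd22, for likeness to other genes, was added after its values were seen.

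The labels number samples as repetitions 1 to 3 and 1 to 5, and do not say whether equal numbers mean a shared origin. Deviations of equally numbered arrays from their genotype means correlated by 0.63, 0.28 and 0.36 over the 3 pairs, which passes the set limit of 0.1. Unequally numbered arrays passed too (0.25 for NPRA-/- replicate 2 with NPRA+/+ replicate 3). No pair of arrays held identical values (0). Scans fell on 4 days and had 6 distinct scan times in the file headers. Arrays with the same scan time were taken as 1 slide, since no slide label was read. No scan time was shared by both genotypes.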

Additional observations from a re-analysis of the deposited data

Results flagged for a closer look

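The second Pax5 probe, on NPRA+/+ replicate 1, read -6.45 where the other 4 wild type arrays read -5.44 to -5.11, a gap to the nearest that is large for the range of the 5 arrays. It was the only one of the 9 probes with such an array in the wild type group, and about 1 in 20 groups would show one without any cause. Replicate 1 of NPRA-/- was likewise the lowest of its genotype on this probe (-5.86), and both arrays stood apart on the first principal component. The first Pax5 probe was at its highest on the same wild type array (-2.96).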

How the results depend on the processing

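The count of called marker genes was 0 in the main comparison and under most of the 23 alternatives. It was 3 with array weights (Blk, Cd79a and Pax5), 0 to 1 on leaving out single arrays (Blk without NPRA+/+ replicate 1), and 2 without replicate 1 of both genotypes, an alternative added after the data were seen. The count of other B lineage genes called was 18 with array weights, 0 to 8 on leaving out single arrays and 6 without replicate 1 of both. With array weights 17 of the 68 tested were higher and 1 lower, where the shares of all probes were 24.9% and 2.12%. Without NPRA+/+ replicate 1, 11% of all probes were called higher, and without replicate 1 of both 11.2%. Over the whole array, calls were 113 higher and 10 lower in the main comparison, 8806 and 749 with array weights, 3900 and 187 without NPRA+/+ replicate 1, and 0 in either direction after quantile normalization. Quantile normalization moved the median change of all probes from 0.21 to -0.002. Fits with a replicate block by repetition number and by source name number called 0 marker genes, and over all probes 0 with the first and 1 higher and 21 lower with the second. The block changed no call of a marker gene.

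Some fitted changes took the opposite sign. With quantile normalization, Cd79a was -0.010, Cd79b -0.23, Pax5 -0.085 and its second probe -0.10. With the deposited table these were -0.0040, -0.22, -0.077 and -0.095. Scaling to the median gave -0.22 for Cd79b and -0.019 for Pax5, and normexp -0.15 and -0.033. Ms4a1, at -0.02, became 0.017 with the replicate block by repetition number, 0.026 with array weights, 0.095 without replicate 1 of both, and -0.20 to 0.27 on leaving out single arrays (0.060, 0.043 and 0.0098 without NPRA+/+ replicates 2, 3 and 5; 0.27 without NPRA-/- replicate 1). With scan day as a block, Cd22 was 0.030 and the second Cr2 probe 0.38; the latter was 0.019 with array weights. The mean of both Cr2 probes was -0.11. The cause of these reversals was not tested. The median correlation among the genes, 0.29, was -0.0048 with scaling to the median, 0.081 to 0.33 on leaving out single arrays (0.081 without NPRA+/+ replicate 4, 0.11 without NPRA-/- replicate 2 and 0.12 without NPRA+/+ replicate 1) and 0.40 without replicate 1 of both.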

Other observations

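The genes whose pattern over the 8 arrays was most like that of Cd22, a comparison added after its values were seen, were Defb34, Ankrd66, Pign, Zfp385b and Ipcef1, with r between 0.966 and 0.991, and 97 of 15634 genes had an r over 0.9. None of the 5 named genes belongs to a B lineage list used here. Their fitted changes between genotypes lay between -1.11 and -0.29, with adjusted p from 0.398 to 0.775. Over the 6 arrays without replicate 1 of each genotype their r with Cd22 lay between 0.930 and 0.984.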
